A study of Mus musculus with 4 samples.

Results

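The Meis and Pbx genes were followed in the accessible chromatin of GFP-tagged interneuron nuclei from cortex and hippocampus. The members were the 5 genes Meis1, Meis2, Meis3, Pbx2 and Pbx3, chosen by name from 21938 protein-coding genes. They also included motifs of the deposited motif matrices, taken by names starting MEIS or PBX, of which 5 are described here: MEIS1, MEIS2, MEIS3, PBX2 and PBX3. Single-nucleus ATAC-seq with the 10x Genomics Chromium assay, in which a transposase cuts and tags open DNA, was run on 4 libraries, 2 from cortex and 2 from hippocampus. All mice were of genotype Dlx6aCre;Sun1/sfGFP and were taken at P30 (postnatal day 30). In this genotype Cre driven by Dlx6 regulatory elements switches on a GFP tag of the nuclear envelope. The tag therefore marks any nucleus with a history of Dlx6aCre activity, and DAPI+/GFP+ nuclei were sorted. The labels do not say whether libraries came from separate animals or pools, so the spread between libraries may be technical. P-values between tissues measure only that spread. Those between groups of nuclei, where library was a block, measure only how much the difference within a library varied from library to library.

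MEIS and PBX proteins belong to the TALE class of homeodomain transcription factors, named for a loop of extra residues in the homeodomain. They bind DNA largely as partners: a MEIS protein pairs with a PBX protein, and the pair can join HOX or other homeodomain factors. In the embryonic ventral forebrain, Meis1 and Meis2 are known from the ganglionic eminences, the source of cortical and hippocampal interneurons. Interneurons of the medial ganglionic eminence (MGE) keep the LIM homeodomain gene Lhx6, and those of the caudal ganglionic eminence (CGE) are marked by Adarb2, an RNA-editing enzyme homologue. These genes were therefore used to order the nuclei.

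The 4 libraries held 15306 nuclei, between 2355 and 5576 each, and between 32005984 and 117290059 transposase cut sites in peaks. Median depth was 47236 cut sites per nucleus in cortex replicate 1 and 7352 to 14917 in the others. Each library came with its own peak calls, between 61965 and 157220 of them. Between 11 and 47 barcodes were shared by any pair of libraries. Interneuron identity was checked on the genes of GABA synthesis and transport and Dlx genes, whose summed level (6 genes) was 662 to 985 CPM (cut sites in the genes' peaks per 1000000 cut sites in all peaks), against 40.0 to 68.7 CPM for 6 excitatory neuron genes. Of the excitatory genes, Neurod2, Neurod6, Tbr1 and Emx1 had no cut site in at least 1 library. Markers of the oligodendrocyte lineage (7 genes) summed to 55.1 and 35.9 CPM in cortex and 116 and 98.3 in hippocampus, with Mog, Mag, Mobp, Olig2 and Sox10 at 0 in at least 1 library. Microglial markers (4 genes, C1qa at 0 in at least 1 library) summed to 204 to 265 CPM. Striatal projection neuron markers (7 genes) gave 141 to 189, astrocyte markers (5 genes) 116 to 156 and endothelial markers (4 genes) 64.7 to 130. These sums were not scaled to the length of peaks, so they do not measure the share of a cell type.

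A gene's level below is the number of cut sites in a library's own peaks over its body or the 2 kb upstream, in CPM over the same nuclei. Meis1 (ENSMUSG00000020160, GRCm38 chr11:18879817-19018985, minus strand), Meis2 (ENSMUSG00000027210, chr2:115863064-116065839, minus) and Pbx3 (ENSMUSG00000038718, chr2:34171457-34373142, minus) are long genes of 139, 203 and 202 kb. Meis3 (ENSMUSG00000041420, chr7:16175090-16186504, plus) spans 11.4 kb and Pbx2 (ENSMUSG00000034673, chr17:34591266-34597400, plus) 6.13 kb. After all peaks that overlapped by 1 bp or more had been joined across libraries, 28 regions of the 5 genes are described here, of which 4 lay over a gene start, 22 in introns and 2 upstream. Only 7 of the 28 held a peak of every library: 2 at Pbx3, 2 at Meis1 and 1 each at Meis2, Meis3 and Pbx2. Pbx2 shared a peak with its neighbour Gpsm3, so their cut sites there cannot be told apart.

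The results below turn on an intronic region of Meis2 and the start of Meis1, and their sequences are shown for that reason. For the intronic region of Meis2, 300 bases centred on the stretch that every library's peak covers were read from GRCm38, at chr2:115963498-115963797 (plus strand). For Meis1, the 250 bases before the RefSeq start are given (RefSeq, GRCm38.p6, chr11:19018970-19019219, minus strand).
Meis2 intronic region: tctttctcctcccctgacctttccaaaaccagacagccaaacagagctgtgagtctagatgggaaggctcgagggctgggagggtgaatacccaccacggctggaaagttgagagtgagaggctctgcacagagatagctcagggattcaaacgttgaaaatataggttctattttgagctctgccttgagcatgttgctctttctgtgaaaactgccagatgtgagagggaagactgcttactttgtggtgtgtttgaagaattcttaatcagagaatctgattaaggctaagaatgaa
Meis1 promoter: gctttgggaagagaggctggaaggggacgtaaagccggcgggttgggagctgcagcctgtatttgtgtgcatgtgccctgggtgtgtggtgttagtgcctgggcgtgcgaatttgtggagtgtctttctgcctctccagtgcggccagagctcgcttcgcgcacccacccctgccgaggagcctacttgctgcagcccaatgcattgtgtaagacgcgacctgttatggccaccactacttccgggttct
Neither sequence held a match to TGACAG (the MEIS core word), TGATTGAC (a PBX half-site joined to a MEIS half-site) or TGATNNAT (a PBX and HOX word) on either strand, so no letters are in capitals. The stretch of the Meis1 start region that every library's peak covers lies further upstream, and its window of 300 bases (chr11:19020378-19020677) held 1 match to TGATNNAT and none to the other words. TGACAG was present in 21.9% of 45812 windows of 300 bases made in the same way from all regions and in 15.9% of 32851 promoters of 250 bases. TGATTGAC was present in 0.550% of windows and 0.691% of promoters and TGATNNAT in 8.63% and 7.68%. These searches describe letters and are not evidence of binding.

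To ask how the genes vary with the interneuron lineages, nuclei were split within each library by their own share of cut sites at Lhx6 and at Adarb2. Lhx6-leaning nuclei lay above the library's median for Lhx6 and not above it for Adarb2, and Adarb2-leaning nuclei the reverse. All values below are given for the 2 cortical libraries in order of their replicate number and then for the 2 hippocampal libraries. In that order the split gave 667, 634, 1287 and 717 Lhx6-leaning nuclei. There were 667, 427, 1457 and 806 Adarb2-leaning nuclei. Few cut sites fall on 1 gene. In cortex replicate 2, 82.6% of nuclei had none at Lhx6 and 87.6% none at Adarb2, and in hippocampus replicate 2 the shares were 59.2% and 56.4%, so in these libraries the gates separated nuclei with a cut site from nuclei without. In hippocampus replicate 1 this was so for Lhx6 (53.0% without) but not for Adarb2 (42.3%), and in cortex replicate 1 for neither gene (20.8% and 34.1%). Lhx6-leaning nuclei were the deeper in every library, with medians of 51512, 8993, 14545 and 16536 cut sites against 44860, 8262, 12059 and 15472. The gates carried other lineage markers with them. The summed level of 7 further MGE markers in Adarb2-leaning nuclei was 0.694, 0.783, 0.738 and 0.742 times that in Lhx6-leaning nuclei. For 7 further CGE markers (Vip at 0 in at least 1 library) it was 1.84, 1.55, 1.41 and 1.36 times. Lhx6 and Adarb2 chose the gates and were not tested.

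Summed over the peaks of each gene, Meis1 and Pbx3 were more accessible in Adarb2-leaning nuclei and Meis2 in Lhx6-leaning nuclei, in every library. Meis3 and Pbx2 did not pass the test. The sums of Meis1 and Meis2 include single regions, described below, that were called by themselves. Of the 16957 genes tested in the same way (edgeR on 8 sums, library as a block), 724 were higher in Adarb2-leaning nuclei (4.27%) and 878 were higher in Lhx6-leaning nuclei (5.18%). The number called fell to 869 without cortex replicate 1, 1036 without hippocampus replicate 1 and 988 without hippocampus replicate 2. Of the 5 members, 2 were called higher and 1 lower, and all 3 stayed called when any library was left out. The median log2 difference was 0.035 over the members and -0.0005 over all genes.

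Meis1, a TALE factor known from blood stem cells and from the developing limb and brain, had 29.2, 16.9, 26.5 and 36.5 CPM in Lhx6-leaning nuclei. In Adarb2-leaning nuclei it had 43.8, 34.8, 35.4 and 45.2 CPM. The ratio was above 1 in 4 of 4 libraries, between 1.24 and 2.06, although the levels of the gates overlapped across libraries. The fitted change was 1.43-fold (log2 0.52 ± 0.086, SE, adjusted p = 0.00064, edgeR). With gates set after thinning each nucleus to 2000 cut sites the log2 change was 0.35 (adjusted p = 0.068), and without the library block the call was lost (adjusted p = 1.0).

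Pbx3, a PBX partner that is expressed in neurons, moved in the same direction as Meis1. Its level was 43.7, 36.5, 39.1 and 46.3 CPM in Lhx6-leaning and 62.7, 44.3, 47.1 and 56.4 in Adarb2-leaning nuclei. The rise was present in 4 of 4 libraries, and was largest in cortex replicate 1, where the ratio was 1.43. The fit gave 1.28-fold (log2 0.35 ± 0.065, adjusted p = 0.0016, edgeR). Thinned gates (0.24, adjusted p = 0.14), leaving out the library block (adjusted p = 1.0) and counting only peaks within 2 kb of the start (0.07, adjusted p = 0.75) each ended the call.

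Meis2, the close relative of Meis1 that marks striatal and olfactory bulb lineages, ran the other way. It had 15.8, 22.1, 25.0 and 12.6 CPM in Lhx6-leaning nuclei and 10.9, 14.6, 18.0 and 9.59 in Adarb2-leaning nuclei. The Adarb2-leaning level was 0.660 to 0.762 times the Lhx6-leaning level in the 4 libraries, lower in all of them. The fitted value was 0.707-fold (log2 -0.50 ± 0.11, adjusted p = 0.0045, edgeR), and of 12 alternatives run only the fit without the library block lost the call (adjusted p = 1.0). As Meis1 and Meis2 moved apart, their ratio of cut sites rose from 1.85, 0.767, 1.06 and 2.90 in Lhx6-leaning nuclei to 4.03, 2.39, 1.97 and 4.72 in Adarb2-leaning nuclei. That rise follows from the changes of both genes and is no further finding.

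Meis3 and Pbx2, both read almost wholly at their starts, showed no common direction between the gates. Meis3 had 28.4, 28.9, 28.3 and 30.8 CPM in Lhx6-leaning and 26.8, 27.3, 30.4 and 31.1 in Adarb2-leaning nuclei (log2 -0.01 ± 0.077, adjusted p = 0.96, edgeR). Pbx2 had 37.6, 24.1, 27.1 and 45.9 against 35.5, 24.0, 30.0 and 49.2 (log2 0.03 ± 0.073, adjusted p = 0.85). For both genes, 2 libraries were higher and 2 lower.

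**Figure D1:**
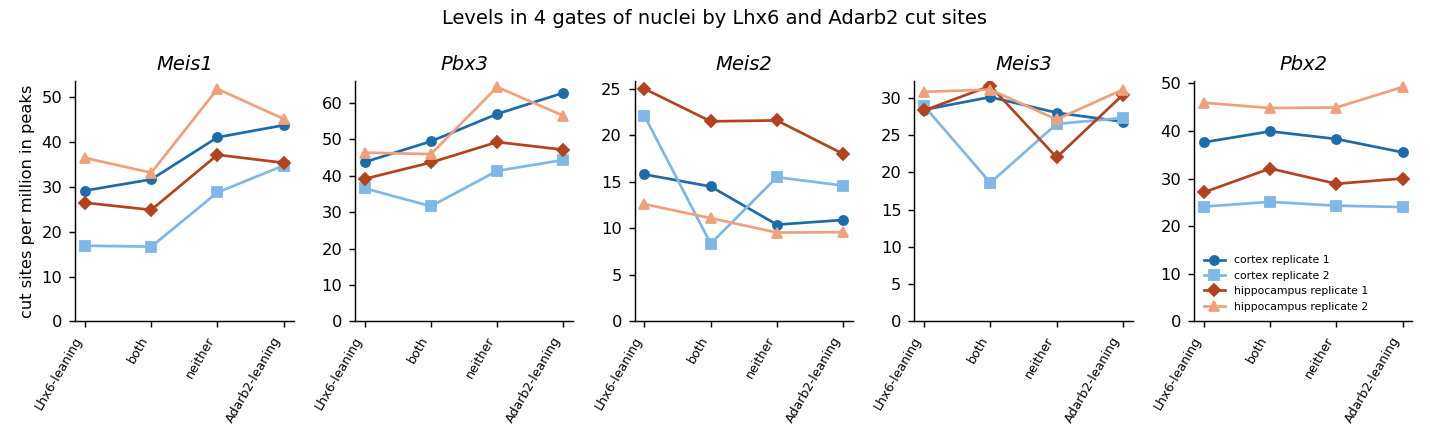
Level in CPM (vertical axis) of the 5 genes in Lhx6-leaning nuclei, nuclei above both medians, nuclei above neither and Adarb2-leaning nuclei (horizontal axis), with 1 line per library (2 cortex, 2 hippocampus). From the first point to the last every line rises for Meis1 and Pbx3 and falls for Meis2, while for Meis3 and Pbx2 they split 2 up and 2 down.

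Markers of other cell types were summed in the same gates. The summed oligodendrocyte-lineage markers were 1.25, 1.10, 1.28 and 1.19 times as high in Adarb2-leaning as in Lhx6-leaning nuclei, and the endothelial markers (4 genes, Cldn5 at 0 in at least 1 library) 1.14, 1.07, 1.02 and 1.16 times. Astrocyte markers (5 genes, Aqp4 and Gja1 at 0 in at least 1 library) gave 1.24, 1.05, 0.940 and 0.918, and striatal projection neuron markers (7 genes, Adora2a at 0 in at least 1 library) 0.937 to 1.09. Microglial (4 genes) and excitatory neuron ratios lay between 0.901 and 1.05. The part of these cells, and of the difference in depth, in the Meis and Pbx differences was not tested. For sums over nuclei, more nuclei with an open site and more cut sites per nucleus cannot be told apart.

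The nuclei left out of this comparison were described in the same way. Nuclei above both medians numbered 510, 94, 1331 and 581, and nuclei above neither 511, 3036, 1501 and 1080. Meis1 had 31.7, 16.7, 24.9 and 33.2 CPM in nuclei above both and 41.1, 28.8, 37.2 and 51.9 in nuclei above neither, so the nuclei above both lay near the Lhx6-leaning level in each library. Pbx3 had 49.4, 31.6, 43.6 and 45.9 above both and 56.9, 41.3, 49.2 and 64.3 above neither. Meis2 had 14.5, 8.36, 21.5 and 11.1 above both and 10.4, 15.5, 21.6 and 9.55 above neither, without a common order. In nuclei above neither the oligodendrocyte markers stood at 63.7, 38.6, 197 and 174 CPM, against 47.3, 29.9, 93.4 and 69.4 in Lhx6-leaning nuclei, and median depth was lowest, at 40604, 6754, 6231 and 11092.

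A fit with Lhx6 and Adarb2 as separate terms over all 16 sums was chosen after these levels had been seen. In it, 2577 of 17012 genes were called for the Lhx6 term (15.1%) and 464 for the Adarb2 term (2.73%). Being above the Lhx6 median went with a 0.704-fold level of Meis1 (log2 -0.51 ± 0.057, adjusted p = 1.1e-07) and a 0.816-fold level of Pbx3 (log2 -0.29 ± 0.048, adjusted p = 4.0e-05). It went with a 1.29-fold level of Meis2 (log2 0.36 ± 0.082, adjusted p = 0.0021), a call that was lost without cortex replicate 1 (adjusted p = 0.059). For the Adarb2 term none of the 5 genes was called by edgeR: the log2 values were 0.01 for Meis1 (adjusted p = 0.98), 0.05 for Pbx3 (0.67), -0.15 for Meis2 (0.38), 0.11 for Meis3 (0.39) and 0.07 for Pbx2 (0.59). Meis3 (log2 0.13, adjusted p = 0.18) and Pbx2 (0.03, adjusted p = 0.75) were not called for the Lhx6 term. The fit was made on the same nuclei as the gate comparison and adds no independent evidence of direction.

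The number of Lhx6 cut sites in a nucleus gave the same order in finer steps. These classes regroup the same nuclei by a gene that set the gates, so they add no independent evidence. In hippocampus the nuclei without a Lhx6 cut site include all those above neither median, with oligodendrocyte markers at 197 and 174 CPM. The part of those nuclei was not tested. In nuclei with 0, 1 to 2, 3 to 4, and 5 or more Lhx6 cut sites, Meis1 had 59.8, 42.1, 32.3 and 30.6 CPM in cortex replicate 1. It had 36.1, 26.1, 25.4 and 25.2 in hippocampus replicate 1 and 48.6, 39.1, 31.8 and 27.2 in hippocampus replicate 2. In cortex replicate 2, where the last class held 19 nuclei and was left out, Meis1 had 29.7, 19.3 and 9.95. Meis1 was thus lower at each step in each library, although the last steps in hippocampus replicate 1 are within counting error. Pbx3 was highest in the nuclei without a Lhx6 cut site in each library, with 75.0, 41.7, 47.9 and 60.3 CPM. In cortex replicate 1 it went on to 59.0, 53.8 and 46.9, and in the hippocampal libraries the later classes ran from 38.2 to 48.2. Meis2 was lowest in nuclei without a Lhx6 cut site, with 8.42, 15.3, 19.4 and 9.57 CPM in that order of libraries. At 5 or more it had 14.9 in cortex replicate 1 and 13.3 in hippocampus replicate 2, while hippocampus replicate 1 had 24.9 at 3 to 4 and 21.1 at 5 or more. Classes of Adarb2 cut sites gave no common order: from 0 to 5 or more, Meis1 went from 32.9 to 37.3 in cortex replicate 1 and from 44.4 to 33.2 in hippocampus replicate 2. Deeper nuclei hold more Lhx6 cut sites, the class medians running from 31930 to 55466 cut sites in cortex replicate 1, and the part of depth was not tested.

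**Figure D2:**
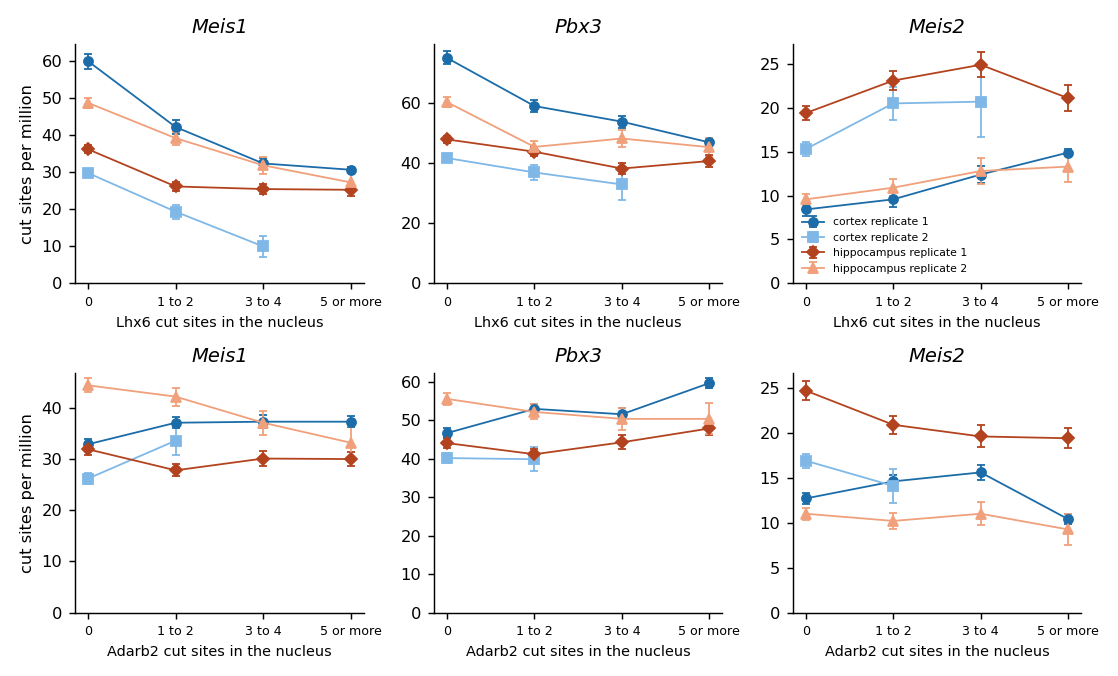
Level in CPM (vertical axis) of Meis1, Meis2 and Pbx3 in nuclei grouped by their number of Lhx6 or Adarb2 cut sites (horizontal axis), with 1 line per library, bars for the counting error (the level over the square root of the gene's cut sites) and the sparsest classes of cortex replicate 2 left out. Along the Lhx6 classes Meis1 falls in all 4 libraries and Meis2 starts at its lowest level, while along the Adarb2 classes the lines take no common course.

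Single regions were compared in the same way. Of the 46698 regions that had a peak in each library, 4654 were higher in Adarb2-leaning nuclei (9.97%) and 5049 were higher in Lhx6-leaning nuclei (10.8%). Of the members' 7 such regions described here, 1 was called higher and 1 lower (edgeR), and both stayed called in all 7 alternatives run, which left out each library in turn, used DESeq2, used no filter, or gated nuclei at the extremes of the Adarb2 to Lhx6 ratio.

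Of the Pbx3 regions described here, neither of those tested was called between the gates. The region over the start (chr2:34371123-34373503) had 32.0, 31.9, 19.7 and 34.6 CPM in Lhx6-leaning and 38.5, 32.1, 18.8 and 34.2 in Adarb2-leaning nuclei (log2 0.10 ± 0.081, adjusted p = 0.42, edgeR). An intronic region 123 kb into the gene (chr2:34249360-34250214) gave log2 0.41 ± 0.18 (adjusted p = 0.13). Among all regions, 24.9% were called for the Lhx6 term of the later fit and 6.98% for the Adarb2 term. The Pbx3 start was called lower for the Lhx6 term (log2 -0.23, adjusted p = 0.0023), a call that was lost without cortex replicate 1 (0.061).

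At Meis1 the start itself differed. The region over the start (chr11:19018713-19021234) had 18.2, 13.3, 10.4 and 21.5 CPM in Lhx6-leaning nuclei and 34.4, 27.5, 17.0 and 32.5 in Adarb2-leaning nuclei. It was higher in Adarb2-leaning nuclei of 4 of 4 libraries, 1.79-fold in the fit (log2 0.84 ± 0.10, adjusted p = 6.0e-05, edgeR). For the separate terms it was lower above the Lhx6 median (log2 -0.79, adjusted p = 9.3e-10), with 0.04 for Adarb2 (adjusted p = 0.80). Nuclei above neither median had 30.2, 22.2, 18.4 and 37.8 CPM there. The other Meis1 region in every library, intronic at chr11:18916567-18917244, gave log2 0.02 ± 0.20 (adjusted p = 0.97). Over all nuclei the start region held 70.3%, 77.3%, 44.5% and 68.2% of the gene's cut sites. The calls of the Meis1 gene and of its start therefore share counts and are not separate findings.

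Meis2 had no peak over its start in any library, so its level was read from introns alone. Its 1 region in every library, 102 kb into the gene at chr2:115963256-115964500, had 12.8, 16.8, 8.76 and 8.70 CPM in Lhx6-leaning nuclei. In Adarb2-leaning nuclei it had 7.42, 8.64, 4.56 and 5.76, lower in 4 of 4 libraries. Across libraries the highest of these (8.64) lay just below the lowest Lhx6-leaning value (8.70). The share of all regions separated in this way was not taken. In Lhx6-leaning nuclei the region held 448, 101, 172 and 103 of the gene's 554, 133, 490 and 149 cut sites. In Adarb2-leaning nuclei it held 242, 32, 83 and 72 of 355, 54, 327 and 120. The calls of the Meis2 gene and of this region are therefore not separate findings, and the gene's other regions were not tested. The region was 1.71-fold lower (log2 -0.78 ± 0.15, adjusted p = 0.0021, edgeR). Its Lhx6 term was called (log2 0.54 ± 0.14, adjusted p = 0.0063), but not without cortex replicate 1 (0.053), and its Adarb2 term was not (log2 -0.28, adjusted p = 0.28). The starts of Meis3 (log2 0.02 ± 0.078, adjusted p = 0.89) and Pbx2 (0.08 ± 0.072, adjusted p = 0.51) were not called. No region of the members was covered to 50% by the peaks of every library, so they have no value under that stricter choice of regions.

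**Figure D3:**
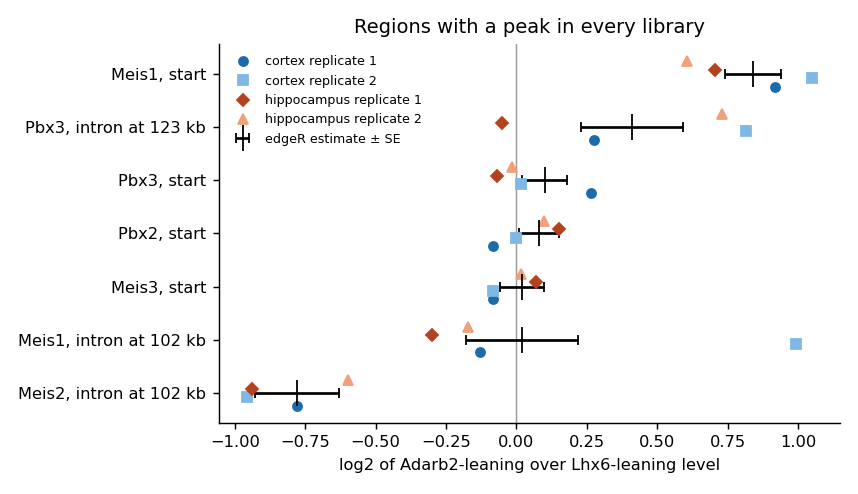
Log2 difference between Adarb2-leaning and Lhx6-leaning nuclei for 7 member regions with a peak in every library, as the edgeR estimate with its SE (line and bar) and the ratio in each library (points), on a log2 axis. The Meis1 start stands at 0.84 and the Meis2 intronic region at -0.78, and the other 5 lie between 0.02 and 0.41.

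Beside the members, 11 other TALE genes were read from a list that was chosen with earlier results of these data known. Of these, 0 were called higher and 1 lower in Adarb2-leaning nuclei (edgeR, with 3 of the 11 under an unadjusted p of 0.05), and their median log2 difference was -0.011. Over all genes 4.27% were called higher and 5.18% lower (9.45% in all), with 3657 of 16957 under an unadjusted p of 0.05. The count for the other TALE genes was near that share. The gene called was Mkx, a TALE factor known from tendon, with 149, 127, 91.9 and 118 CPM in Lhx6-leaning nuclei and 109, 95.8, 68.5 and 84.7 in Adarb2-leaning nuclei (log2 -0.45, adjusted p = 6.9e-06). Of 14 ganglionic eminence transcription factors, chosen in the same way, 3 were called higher and 1 lower (median 0.099), beside the same shares over all genes. Without cortex replicate 1, 2 were called in all. The zinc finger factor Sp8, known from CGE and olfactory bulb interneurons, had 2.90, 0.498, 0.0510 and 1.18 CPM in Lhx6-leaning and 17.3, 1.08, 0.165 and 5.36 in Adarb2-leaning nuclei (log2 2.36, adjusted p = 1.3e-05). In cortex replicate 2 and hippocampus replicate 1 its levels rest on a few cut sites, so the change is carried mainly by the other libraries. The homeobox gene Dlx1 (log2 0.24, adjusted p = 0.0034) and the forkhead gene Foxp1 (0.20, adjusted p = 0.0091) were also higher in 4 of 4 libraries, and the zinc finger gene Tshz2 (-0.22, adjusted p = 0.029) was lower in 4 of 4.

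The tissues were compared next, with 2 libraries each. Meis1 had 36.0 and 26.9 CPM in cortex and 30.0 and 42.1 in hippocampus (31.5 ± 6.48 and 36.0 ± 8.50, mean ± SD, n = 2). Meis2 had 13.1 and 16.4 in cortex and 21.6 and 10.7 in hippocampus, the widest relative spread of the 5 genes within a tissue (14.7 ± 2.30 and 16.1 ± 7.72). Its own peaks covered 2626 bp in hippocampus replicate 1 and 1061 bp in hippocampus replicate 2. Its region with a peak in every library had 9.90 and 9.72 CPM in cortex and 6.92 and 6.59 in hippocampus (edgeR adjusted p = 0.94). Pbx3 had 52.8 and 40.4 in cortex and 44.2 and 53.6 in hippocampus (46.6 ± 8.77 and 48.9 ± 6.64). In these 3 genes the tissues overlapped. Pbx2 had 37.7 and 24.3 in cortex and 29.7 and 46.3 in hippocampus and overlapped too (31.0 ± 9.49 and 38.0 ± 11.7). Meis3 had 28.3 and 26.7 in cortex and 28.8 and 30.0 in hippocampus (27.5 ± 1.11 and 29.4 ± 0.815). Its hippocampal values lay higher by a small margin, and the share of all genes separated in this way was not taken.

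None of the 5 genes differed between the tissues by edgeR. The log2 differences (hippocampus over cortex) were 0.25 ± 0.28 for Meis1, 0.26 ± 0.48 for Meis2, 0.17 ± 0.23 for Meis3, 0.33 ± 0.33 for Pbx2 and 0.13 ± 0.26 for Pbx3, each with an adjusted p of 1.00. DESeq2 also called 0 of the 5, and 0 of the 5 had an unadjusted p under 0.05 with either tool. Over all 16326 genes 1 was called (0.00613%), with 357 under an unadjusted p of 0.05 and 153 called by DESeq2. Of the 46698 regions edgeR called 0 (0%), with 3575 under an unadjusted p of 0.05 and 352 called by DESeq2. None of the members' 7 regions was among these. Without cortex replicate 1, which leaves 1 cortical library, the log2 differences were 0.60 for Meis1, 0.20 for Meis2, 0.33 for Meis3, 0.82 for Pbx2 and 0.46 for Pbx3. Within Lhx6-leaning or Adarb2-leaning nuclei alone the 5 genes again were not called, with log2 differences from -0.00 to 0.48 (adjusted p = 1.00). In simulated data of this design 4% of genes changed 2-fold and 65% of those changed 4-fold were recovered, so differences of the size of the gate differences were not detectable between tissues at this number of libraries.

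The gate difference itself was compared between tissues by an interaction term, for which 92 of 16957 genes were called (0.543%), a count that ran from 2 without either hippocampal library to 285 without cortex replicate 2. None of the 5 genes was (edgeR 0, DESeq2 0, and 1 of the 5, Meis1, under an unadjusted p of 0.05 in edgeR). The Meis1 difference was smaller in hippocampus than in cortex by log2 -0.34 ± 0.16 (adjusted p = 0.60), and under gates from thinned nuclei the sign turned (0.04). Its ratios had been 1.50 and 2.06 in cortex and 1.34 and 1.24 in hippocampus.

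**Figure D4:**
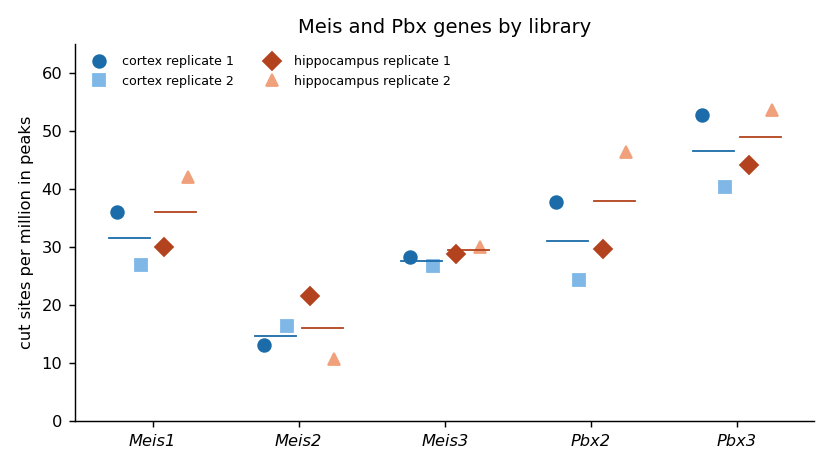
Level in CPM (vertical axis) over all nuclei of each library for the 5 genes, with a point per library and a horizontal line for the mean of the 2 libraries of a tissue. Cortex and hippocampus overlap for Meis1, Meis2, Pbx2 and Pbx3, and for Meis3 the 4 values lie between 26.7 and 30.0.

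Levels of different genes were compared only per length of peak. As CPM per kb of the gene's own peaks, Meis2 had the lowest density in each library, with 6.68, 20.7, 8.22 and 10.0. Meis1 had 9.17, 25.5, 10.3 and 13.5, and Pbx3 had 11.5, 30.2, 10.1 and 17.1. Meis3 (13.5, 27.1, 9.60 and 17.1) and Pbx2 (13.6, 29.4, 10.2 and 16.8) overlapped Pbx3, and no order among Meis3, Pbx2 and Pbx3 held in all libraries. Cortex replicate 2, with the fewest and shortest peaks, was highest for every gene, so densities are compared only within a library.

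In single nuclei the genes were sparsely covered. At least 1 Pbx3 cut site was seen in 64.7%, 15.3%, 25.1% and 32.3% of nuclei and at least 1 Meis2 cut site in 26.3%, 7.40%, 14.2% and 9.20%. Thinned to 2000 cut sites per nucleus, with 351 shallower nuclei left out, the expected shares were 9.83%, 6.79%, 8.09% and 9.46% for Pbx3 and 2.41%, 2.84%, 3.65% and 1.89% for Meis2. For Meis1, 53.5%, 10.8%, 19.0% and 26.5% became 7.13%, 4.69%, 5.64% and 7.86%. The range between libraries was narrower after thinning for each of these genes.

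The motif matrices count, for each nucleus, the signal assigned to a motif's occurrences, and a motif's level is given as a percent of all motif counts. The files do not state how occurrences were called, and motifs of related factors may share occurrences, which was not tested. MEIS1 was among the most counted motifs, with 2.35%, 1.93%, 2.41% and 2.22% of all counts and ranks 6, 8, 6 and 6 among all motifs. MEIS2 had 0.286%, 0.210%, 0.272% and 0.254% and MEIS3 0.257%, 0.182%, 0.247% and 0.217%. The PBX motifs were rarer: PBX3 had 0.0723%, 0.0909%, 0.0872% and 0.0846%, and PBX2 0.0261%, 0.0434%, 0.0334% and 0.0349%. The level of a motif depends on its length and letters, so its rank is no measure of the factor.

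Between the tissues, none of the 5 motifs was called (edgeR 0, DESeq2 0, limma 0, and 0 under an unadjusted p of 0.05). Over all motifs edgeR called 0 (0%), with 1 under an unadjusted p of 0.05, and DESeq2 and limma also called 0. Without cortex replicate 1, which leaves 1 cortical library, the median log2 difference over all motifs (edgeR) was -0.2363, against -0.1169 with every library. With every library, the log2 differences of the members (limma, hippocampus over cortex) ran from 0.02 ± 0.37 for PBX2 to 0.12 ± 0.31 for MEIS1, and by edgeR the PBX2 value was -0.02.

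Between the gates, the levels of the 5 motifs moved by a few percent at most. The PBX2 motif was higher in Adarb2-leaning nuclei by 4.85%, 2.31%, 2.58% and 1.85% (2.90 ± 1.34%, mean ± SD, n = 4, edgeR adjusted p = 0.022, limma adjusted p = 0.028). The PBX3 motif was higher by 1.61%, 1.27%, 1.56% and 0.41% (1.21 ± 0.56%, edgeR adjusted p = 0.0061), and limma did not call it (adjusted p = 0.071). Both PBX motifs were higher in 4 of 4 libraries. These calls did not hold throughout: PBX2 was lost in 7 and PBX3 in 6 of 11 alternatives, including gates from thinned nuclei (adjusted p = 0.12 and 0.56). Without cortex replicate 1 both were lost (0.052 and 0.072), as they were without cortex replicate 2 (0.11 and 0.052), and PBX2 was also lost without either hippocampal library (0.088 and 0.055). By edgeR 125 of all motifs were higher in Adarb2-leaning nuclei (21.6%) and 119 were higher in Lhx6-leaning nuclei (20.6%), and limma called 125 (21.6%) in all. The members' 2 higher and 1 lower of 5 stand beside those shares.

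The MEIS motifs barely moved. MEIS1 changed by -0.21%, -0.12%, -0.09% and -0.49% (-0.23 ± 0.18%); edgeR called it (adjusted p = 0.032), but limma did not (0.58), all 11 alternatives lost the call, and under TMM scaling the sign turned (log2 0.0018). MEIS2 changed by -0.37 ± 0.19% (edgeR adjusted p = 0.55) and MEIS3 by -0.11 ± 0.41% (adjusted p = 1.0). Over all motifs the changes ran from -14.27% to 8.07%, with a median size of 1.09%, so PBX2 and PBX3 exceeded the median size and the MEIS motifs lay below it. Of the motifs of the other TALE factors PKNOX1, PKNOX2, TGIF1 and TGIF2, none was called (edgeR 0, DESeq2 0, limma 0, and 1 under an unadjusted p of 0.05 in edgeR). The interaction of gate and tissue was called for 0 motifs by edgeR (0%), with 79 under an unadjusted p of 0.05, 5 called by DESeq2 and 0 by limma, and 0 of the 5 members were under an unadjusted p of 0.05. With cortex replicate 2 left out, cortex holds 1 library, and calls over all motifs became common. The PBX2 change was then smaller in hippocampus (log2 -0.037), which does not set PBX2 apart from other motifs.

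**Figure D5:**
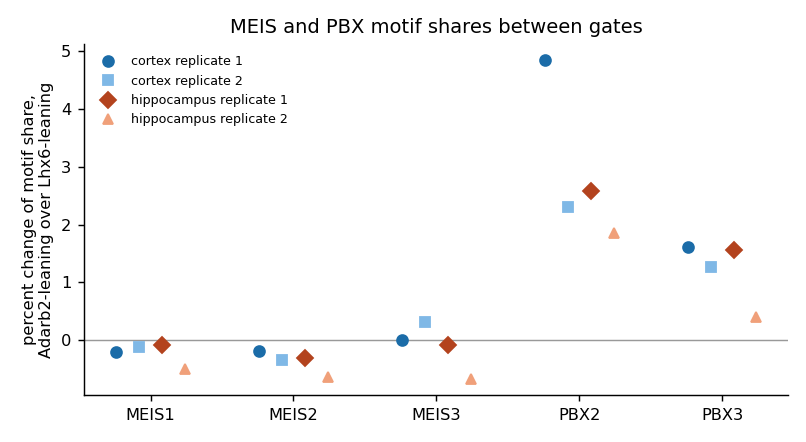
Percent change of each motif's share of all motif counts from Lhx6-leaning to Adarb2-leaning nuclei, with a point per library for each of the 5 motifs. PBX2 (1.85% to 4.85%) and PBX3 (0.41% to 1.61%) lie above 0 in all 4 libraries, while the MEIS1, MEIS2 and MEIS3 values lie between -0.67% and 0.32%.

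Motif levels were also read against the members' own cut sites. In nuclei with at least 1 cut site of a member gene against nuclei with none, the 25 pairs of gene and motif changed by -2.59% to 1.09%, and 1 pair was higher and 4 lower in all 4 libraries. In nuclei with a Meis2 cut site the PBX2 motif changed by -1.99%, -0.85%, -1.27% and -2.59% and the PBX3 motif by -1.68%, -0.82%, -0.67% and -0.47%. The MEIS1 motif changed by 0.33%, 0.23%, 0.24% and 0.53% there. Nuclei with a cut site are deeper, and these values were not tested. The count of pairs was not taken over other genes, so it does not set the members apart. Meis2 was also more accessible in Lhx6-leaning nuclei, so its pairs are not independent of the gate comparison. Across nuclei of a library, the correlation between any pair of the 5 motifs lay between -0.20 and 0.32, over nuclei that share depth and base composition.

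Finally, the genes most like each member were named by Pearson's r over the 16 sums (4 gates in 4 libraries, centred within each library), out of about the same 16956 genes. These were Gpd1 (r = 0.96) and Foxo6 (0.95) for Meis1 and Ankrd31 (0.94) and Pla2g7 (0.94) for Meis2. For Pbx3 they were Sema5b (0.96) and Gpd1 (0.95), so Gpd1, a glycerol phosphate dehydrogenase, was near both of the members that rose. Meis3 was followed by Gm21976 (0.96) and Ccl27a (0.94) and Pbx2 by Il13 (0.88) and Gm20538 (0.86). The sums share libraries and depth, 1 of them holds only 94 nuclei, and the values are a description.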

How the data were processed

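Single-nucleus ATAC-seq libraries had been processed by the authors with Cell Ranger ATAC 1.2.0 on GRCm38 (mm10), per the submitters' processing notes. The deposited matrices hold raw counts, as whole numbers: cut sites per peak and nucleus, and counts per motif and nucleus, with no normalization; peaks were called per library.

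Counts were summed over nuclei per library, or per library and gate, since nuclei are not replicates. Gene values used each library's own peaks over the gene body or 2 kb upstream (GENCODE M21, 21938 protein-coding genes), a peak counting in full for each gene it overlaps. Sums were tested with edgeR 4.0.16 in R 4.3.3 (quasi-likelihood, robust, TMM, filterByExpr; motifs scaled to all motif counts without TMM; prior count 0.125), Benjamini-Hochberg over all features, threshold 0.05. DESeq2 1.42.0 was an alternative, and limma 3.58.1 on log2 CPM was added for motifs after the data had been seen, as was the fit with separate terms. No doublet caller was run; an alternative left out the deepest 5% of nuclei. Other alternatives changed the filter, scaling, block, gates (nuclei thinned to 2000 cut sites, or extremes of the Adarb2 to Lhx6 ratio) or peaks counted, or left out each library. The members and lists were chosen with earlier results of these data known. Named were all members, the list genes past the threshold, the members' regions in every library and the 2 genes most like each member. On simulated sums the gate design recovered 96% of genes changed 2-fold and 100% of those changed 4-fold.

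Depth was 32005984 to 117290059 cut sites per library; sums carry counting error beside the spread between libraries. Some items that the rules and lists would take in are not reported here. Sequences came from GRCm38 and, for promoters, RefSeq.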

Additional observations from a re-analysis of the deposited data

How the results depend on the processing

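Main counts of calls are given first, with those that moved by over 1.5 times. Tissue, genes: 1; DESeq2 153, regions of every library 0, within 2 kb of the start 2, no TMM 20, leaving out a library 0 to 395. Tissue, motifs and regions: 0 and 0; DESeq2 352 regions, leaving out a library 0 to 100 and 0 to 3184. Gate, genes: 1602; within 2 kb of the start 818, thinned gates 486, no library block 0, leaving out a library 869 to 1423. Gate, motifs: 244; extremes of the Adarb2 to Lhx6 ratio 83, thinned gates 94, no library block 0, limma 125, leaving out a library 98 to 154. Gate, regions: 9703 of 46698; regions covered to 50% in each library 3836 of 19533, with fewer regions tested. Interaction, genes: 92; DESeq2 25, ratio extremes 6, thinned gates 15, leaving out a library 2 to 285. Interaction, motifs: 0; DESeq2 5, ratio extremes 3, leaving out a library 0 to 271. Tissue within Lhx6-leaning nuclei: 1; DESeq2 125, regions of every library 0, leaving out a library 2 to 137. Tissue within Adarb2-leaning nuclei: 1; DESeq2 61, regions of every library 0, leaving out a library 6 to 386. Other TALE genes: 1; regions of every library 2, deepest nuclei left out 2, no library block 0. Ganglionic eminence factors: 4; within 2 kb of the start 2, no library block 0, leaving out a library 2 to 4. Lhx6 term: genes 2577 (1491 to 2602 leaving out a library), regions 11609 (6979 to 10679). Adarb2 term: genes 464 (57 to 358), regions 3258 (889 to 2454). The cause of the other changes was not tested.

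Some small log2 values changed sign. Between tissues, Meis1 went to -0.00 and Pbx3 to -0.15 within 2 kb of the start, and Meis2 to -0.34 in regions of every library. Between gates, Meis3 went to 0.01 without the deepest nuclei, the MEIS1 motif to 0.0018 under TMM, the MEIS3 motif to 0.0005 with DESeq2 and 0.0035 under TMM, and the Meis1 intronic region to -0.11 with ratio extremes. The Meis1 interaction went to 0.04 with thinned gates. Leaving out each library in turn, log2 values with a sign change ran from -0.01 to 0.60 (Meis1), -0.48 to 0.76 (Meis2), -0.01 to 0.82 (Pbx2) and -0.12 to 0.46 (Pbx3) between tissues. Between gates they ran from -0.06 to 0.03 for Meis3, -0.01 to 0.10 for Pbx2 and -0.0036 to 0.0010 for the MEIS3 motif. Of the regions, the Meis1 intron gave -0.17 to 0.12 and the starts of Pbx3 and Meis3 -0.02 to 0.14 and -0.04 to 0.03. In the later fit the Adarb2 term gave -0.05 to 0.07 for Meis1, -0.01 to 0.11 for Pbx3 and -0.03 to 0.11 for the Meis1 start, and the Lhx6 term -0.05 to 0.02 for the Pbx2 start. None of these was called. A tissue left with 1 library was assumed to vary like the other. Of the 7 members' regions none had a value under 50% coverage, and Meis2 had none within 2 kb of its start.

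With the replicate number as a block, edgeR called 0 genes, 0 motifs and 0 regions between tissues, and 0 genes within either gate. The numbers are only shared: same-numbered libraries deviated with correlations of 0.1674 over genes, 0.6821 over motifs and -7e-04 over regions.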
